A study of Mus musculus with 6 samples.

Results

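Goblet cells are the mucus-secreting cells of the intestinal epithelium, and 9 genes of their mucus were followed by name: Muc2, Muc13, Tff3, Fcgbp, Clca1, Zg16, Agr2, Spdef and Spink4. All 9 were found among the 32219 genes of the deposited table. The 6 RNA-seq libraries of mouse intestine comprised 3 labelled wild type (WT 1, WT 2, WT 3) and 3 labelled knockout (KO 1, KO 2, KO 3). The labels list epithelium, immune cells and enteric neurons as the cells present, and the design text speaks of whole duodenum. Polyadenylated RNA was extracted with TRIzol in both groups. The labels and design text used here do not say which gene was knocked out or in which cells, nor the mouse strain, sex or age. They do not say that each library is a separate animal either, so p-values cover the spread among these libraries only, and that spread may be technical.

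The mucus gel of the small intestine is built mainly from Muc2, a very large secreted mucin that is folded in the endoplasmic reticulum, coated with O-linked sugars, packed into granules and unfolded on release. Other goblet proteins are secreted with it, among them the trefoil peptide Tff3, the gel-associated protein Fcgbp, the metalloprotease Clca1, the lectin Zg16 and the inhibitor-like peptide Spink4. Agr2, a disulfide isomerase family member of the endoplasmic reticulum, is needed for Muc2 production, Spdef is a transcription factor of goblet cell maturation, and Muc13 is a transmembrane mucin of the apical surface that enterocytes carry as well.

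KO 1 held values for only part of the genome. On chromosomes 1 and 10 to 18, at most 1.89% of the genes above 1 elsewhere were listed at 0 in KO 1, while on chromosomes 2 to 9, X and M all of them were. Chromosome 19 was covered in part, with 61.2% of such genes at 0. Zeros of KO 1 in the second set and on the uncovered part of chromosome 19 were therefore treated as missing. Its other values were scaled up by a factor of 2.12, and "rescaled" below means divided by that factor on the linear scale. KO 1 also stood apart where it had values. Gata4, a factor of the proximal small intestine, was at 5.19 rescaled against 0.43 to 0.63 in the other libraries, and Fabp6, the ileal bile acid binding protein, was at 3.91 against 8.16 to 8.76. The test therefore compared WT 1, WT 2 and WT 3 with KO 2 and KO 3, and KO 1 is given beside it. Low Gata4 and high Fabp6 in those 5 libraries go against the duodenum named in the design text. The table holds no read counts, and library depth is unknown.

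Of the 9 genes, 5 had an entry in the set of RefSeq promoters used here (GRCm38.p6, the assembly of mm10): Muc2, Muc13, Fcgbp, Agr2 and Spdef. The 180 bases that end 20 bases short of the RefSeq start site are shown for 4 of them. Muc2 was chosen as the most abundant member and Muc13 as the sole member whose lowest library was not WT 2. Agr2 and Spdef were chosen as the folding factor and transcription factor that KO 1 covers. The sequences lie at chr7:141690140-141690319 (plus strand), chr16:33793837-33794016 (plus strand), chr12:35992725-35992904 (plus strand) and chr17:27728972-27729151 (minus strand). The RefSeq start site equals the GENCODE gene start given below for Muc2 and Muc13. For Agr2 it is 35992925 against 35992907 in GENCODE, and for Spdef 27728951 against 27728955. Each sequence is written 5′ to 3′, and capitals mark matches on either strand to CAGCTG, an E-box of the kind that basic helix-loop-helix factors such as Atoh1 bind, to TATAAA, to TTTATG, a CDX-type site, or to CCACCC, a KLF-type site.
Muc2: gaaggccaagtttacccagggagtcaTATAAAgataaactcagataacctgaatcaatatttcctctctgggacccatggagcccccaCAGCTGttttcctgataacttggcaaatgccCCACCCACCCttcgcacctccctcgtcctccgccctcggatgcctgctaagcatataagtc
Muc13: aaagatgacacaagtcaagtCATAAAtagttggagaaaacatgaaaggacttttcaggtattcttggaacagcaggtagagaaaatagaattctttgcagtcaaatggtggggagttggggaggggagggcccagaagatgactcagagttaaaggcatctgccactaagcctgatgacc
Agr2: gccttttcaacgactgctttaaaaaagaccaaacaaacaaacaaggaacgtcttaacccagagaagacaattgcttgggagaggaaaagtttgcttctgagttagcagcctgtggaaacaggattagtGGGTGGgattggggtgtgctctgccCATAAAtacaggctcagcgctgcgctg
Spdef: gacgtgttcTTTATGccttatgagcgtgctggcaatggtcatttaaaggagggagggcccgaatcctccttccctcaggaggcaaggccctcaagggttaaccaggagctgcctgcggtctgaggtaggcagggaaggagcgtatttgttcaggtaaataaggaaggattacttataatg
Over the 250 bases before the RefSeq start, TTTATG was present in 3 of the 5 members (Muc13, Agr2 and Spdef). It was present in 10.8% of all 32851 promoters of that length in the set used. CCACCC was present in 3 of 5 (Muc2, Fcgbp and Agr2) and in 28.1% of all, CAGCTG in 2 of 5 (Muc2 and Fcgbp) and in 13%, and TATAAA in 1 of 5 (Muc2) and in 12.4%. TATAAA and the reverse complement of TTTATG share their last letters, and the neighbouring CCACCC matches in Muc2 overlap. TGTTTAC, a FOXA-type site (3.17% of all), and CCGGAT, a core bound by Spdef (4.94%), were not found in these 5 windows. A match describes the letters of the window and is not a measured binding site.

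Levels are taken as log2(abundance + 1) throughout. The log base and the unit of abundance are not stated, so percentages on the linear scale rest on base 2, and comparisons of level between genes rest on an abundance per gene length. Muc2 (chr7:141690340-141754693, plus strand) was the most abundant member. Its level was 11.67, 11.42 and 11.58 in WT 1, WT 2 and WT 3 and 11.45 and 11.55 in KO 2 and KO 3. WT 1 was highest and WT 2 lowest, and the KO libraries lay between them. Muc2 ranked between 1 and 7 among all genes in each of the 5 libraries and made up 0.890% to 1.05% of the summed linear values. The 9 genes together made up 1.76% to 2.02%, of which Muc2 alone was 48.8% to 51.8%. The annotation breaks Muc2 into pieces: none of its 8 GENCODE transcripts spans the locus, the longest covers 10082 of 64354 bases, and the merged exons measure 7127 bases. Its level per length therefore depends on the gene model, which is not stated.

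Spink4 (chr4:40920052-40931395, plus strand), a small secreted peptide with a Kazal-type inhibitor domain, was at 9.27, 9.22 and 9.41 in WT 1 to WT 3, against 9.28 in KO 2 and 9.47 in KO 3. Tff3 (chr17:31125306-31129646, minus strand), which protects and restores the mucosa, was at 9.02, 8.67 and 8.92 in WT 1 to WT 3, against 8.80 in KO 2 and 8.93 in KO 3. Fcgbp (chr7:28071236-28120862, plus strand), which carries von Willebrand factor domains as Muc2 does, was at 8.88, 8.50 and 8.80 in WT 1 to WT 3, against 8.57 in KO 2 and 8.82 in KO 3. In each of these genes WT 2 was the lowest library and both groups overlapped.

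Zg16 (chr7:127050156-127087328, minus strand), a lectin that binds Gram-positive bacteria, had the widest spread of the 9 genes. It was at 8.21, 7.66 and 8.09 in WT 1 to WT 3, against 8.03 in KO 2 and 7.91 in KO 3. Clca1 (chr3:145003817-145032776, minus strand), a secreted protease that processes Muc2, was at 7.85, 7.61 and 7.80 in WT 1 to WT 3, against 7.69 in KO 2 and 7.64 in KO 3. Both KO values of each gene lay inside the WT range. Clca1 belongs to a cluster of related genes on chromosome 3, and reads shared with them may have been assigned either way.

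Agr2 (chr12:35992907-36004087, plus strand) was at 7.95, 7.82 and 8.19 in WT 1 to WT 3, against 7.98 in KO 2 and 7.94 in KO 3. Spdef (chr17:27714352-27728955, minus strand) was the lowest member, at 3.98, 3.79 and 4.05 in WT 1 to WT 3, against 3.92 in KO 2 and 4.05 in KO 3. KO 3 was the highest library for Spdef, by a margin smaller than the spread within WT.

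Muc13 (chr16:33794037-33819934, plus strand) was at 9.31, 9.39 and 9.66 in WT 1 to WT 3, against 9.36 in KO 2 and 9.40 in KO 3. It was the sole member whose lowest library was WT 1, and WT 3 was its highest. Exons of Muc13 overlap Gm15657, a predicted gene on the opposite strand. Gm15657 was at 5.44, 5.24 and 5.19 in WT 1 to WT 3, against 4.83 in KO 2 and 5.71 in KO 3, and without a stated strand setting their reads cannot be told apart.

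**Figure D1:**
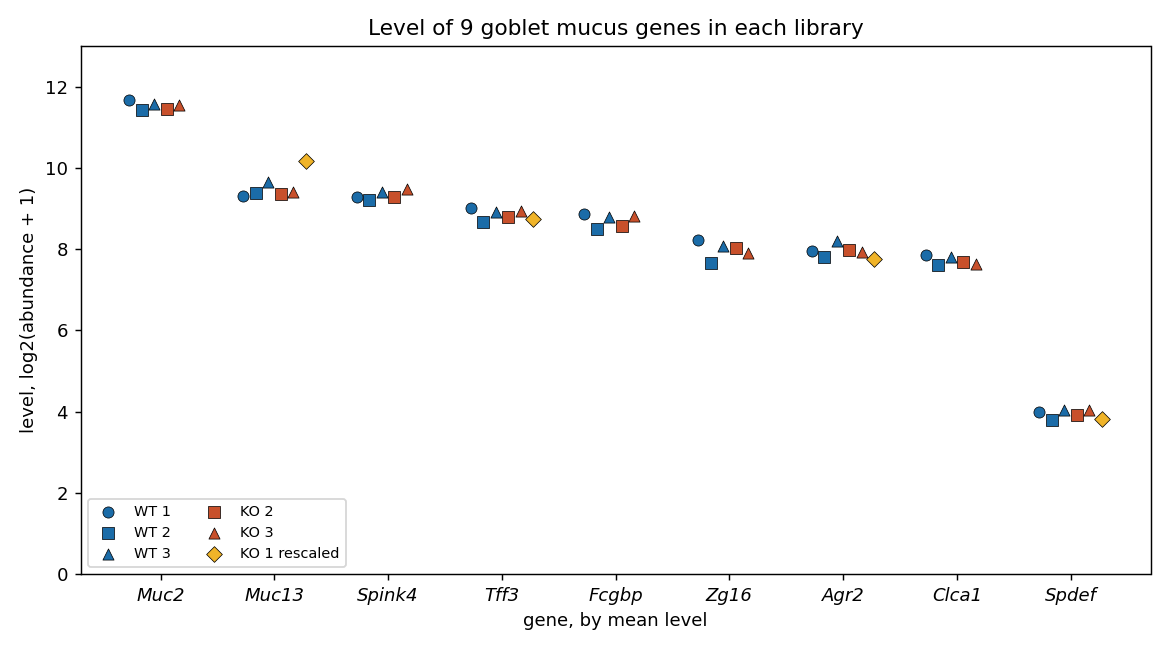
Level of the 9 genes in each library (vertical axis, log2(abundance + 1); horizontal axis, genes ordered by mean level). Blue symbols are WT, red symbols KO 2 and KO 3, and yellow diamonds KO 1 rescaled, drawn for the 4 genes it covers. Muc2 stands between 11.42 and 11.67, Spdef between 3.79 and 4.05, and WT and KO 2 and KO 3 overlap in each gene.

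The order of the members was stable at its steps and unresolved between some neighbours. Muc2 exceeded Muc13 by 1.92 to 2.36 log2 units in each of the 5 libraries. Muc13 and Spink4 overlapped, with Muc13 higher in 4 of 5. Spink4 exceeded Tff3 by 0.26 to 0.55, and the ranges of these genes did not overlap. Tff3 was above Fcgbp in 5 of 5 libraries by 0.10 to 0.24, although the ranges over libraries overlapped. Fcgbp exceeded Zg16 by 0.53 to 0.91. Zg16 and Agr2 could not be ordered, with Zg16 higher in 2 of 5, and Agr2 was above Clca1 in 5 of 5 by 0.09 to 0.39. Clca1 exceeded Spdef by 3.59 to 3.87.

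None of the 9 genes differed between KO and WT beyond the spread between libraries. By limma on the 5 libraries, 0 of 9 passed an adjusted p under 0.05, and 0 of 9 had an unadjusted p under 0.05. Over all 22178 genes tested, 1 (Gm49380, a predicted gene) or 0.00451% passed, and 494 had an unadjusted p under 0.05. In 0 of 9 members did the KO values lie outside the WT range on 1 side in both libraries, against 13.6% of all genes. The KO mean was higher in 2 of 9 (Spdef and Spink4) and lower in 7 of 9, where it was higher in 61.0% of all genes. Among the members, only Clca1 kept its sign under every alternative run. The median difference, KO minus WT, was -0.03 log2 units over the 9 genes and 0.03 over all genes.

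The differences ran from -0.09 ± 0.12 (SE) for Clca1 to 0.08 ± 0.19 for Spink4, which on the linear scale is a change of -5.92% to 5.56%. Each had an adjusted p of 0.99998 by limma, and each was smaller than the range within the 3 WT libraries. The 95% interval of the difference was -0.39 to 0.215 for Clca1, -0.229 to 0.325 for Spdef, -0.393 to 0.336 for Agr2 and -0.479 to 0.452 for Zg16. For Tff3 it was -0.437 to 0.426, for Fcgbp -0.483 to 0.426, for Spink4 -0.38 to 0.535 and for Muc13 -0.574 to 0.423. For these 8 genes the intervals thus exclude a change of 1 log2 unit in either direction, while smaller changes within them could not be detected.

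Muc2 had a difference of -0.05 ± 0.43 (SE) and a much wider interval, -1.10 to 0.99. The width came from the variance trend fitted over all genes, which raised the SD of Muc2 from 0.109 between its own libraries to 0.470. Without the trend the SE was 0.10 and the interval -0.31 to 0.20. In bulk tissue, fewer goblet cells and less RNA per goblet cell cannot be told apart, so these differences describe the tissue total.

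**Figure D2:**
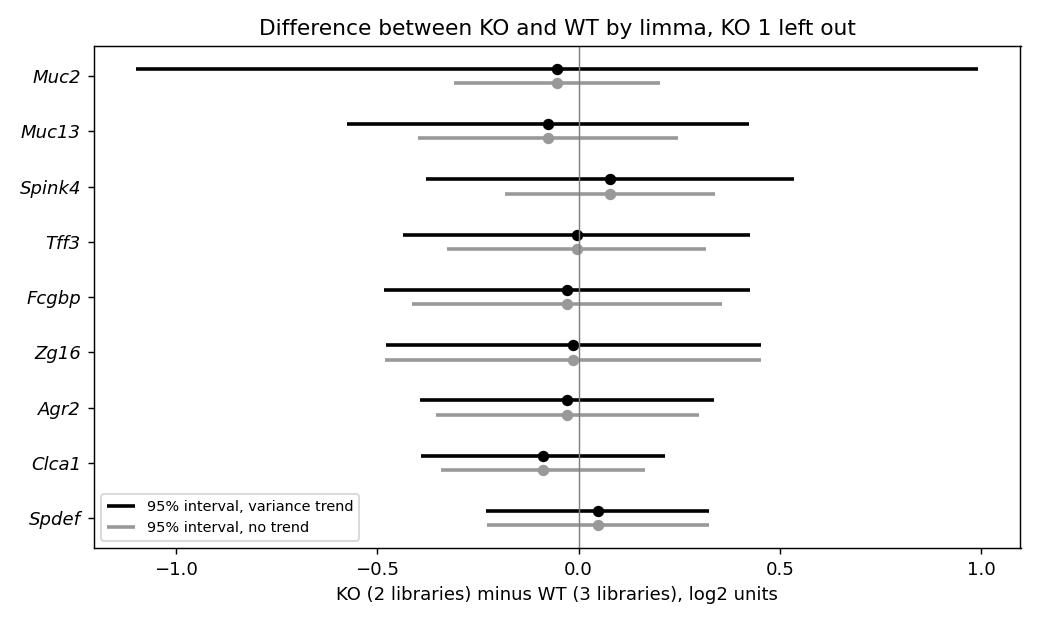
KO minus WT for each of the 9 genes (horizontal axis, log2 units; 2 KO against 3 WT libraries, KO 1 left out). Points are the estimates and bars the 95% intervals by limma with a variance trend (black) and without it (grey). Every interval spans 0, and that of Muc2 with the trend is the widest, from -1.10 to 0.99.

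The members had a library pattern in common. WT 2 was the lowest of the 5 libraries in 8 of 9 members, Muc13 being the exception. Among genes at or above the median level, WT 2 was the lowest library in 18.3%. Relative to each gene's mean over the 5 libraries, the 9 genes averaged -0.16 in WT 2, -0.05 in KO 2, 0.02 in KO 3, 0.07 in WT 1 and 0.11 in WT 3. Zg16 had the largest deviation, at -0.32 in WT 2 and 0.23 in WT 1. KO 2 and KO 3 thus lay between WT 2 and WT 3.

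Markers of the whole epithelium and of other cells also differed between the same libraries. All 9 pan-epithelial markers, such as Epcam and Krt8, were lowest in WT 2, and their average relative to the 5-library mean was -0.20 in WT 2, -0.09 in KO 2, 0.09 in WT 1 and WT 3, and 0.11 in KO 3. Their summed linear level was 1457 to 1794 in WT and 1571 to 1795 in KO 2 and KO 3. All 7 leukocyte markers, Ptprc and Cd3e among them, were highest in KO 2, and their average was 1.16 there and 0.61 in WT 2, against -0.74 to -0.48 in the remaining libraries. Their summed level was 51.2 to 113.2 in WT and 47.4 to 147.0 in KO. The 7 smooth muscle markers summed to 1085 to 1451 in WT and 1124 to 1519 in KO. No marker of these 3 lists was at 0 throughout. Lists of single epithelial cell types were mixed in WT 2. Enterocyte markers averaged -0.25 and enteroendocrine markers -0.06 there, against 0.11 for Paneth cell markers and 0.05 for tuft cell markers. The part of tissue composition in the levels of the 9 genes was not tested.

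**Figure D3:**
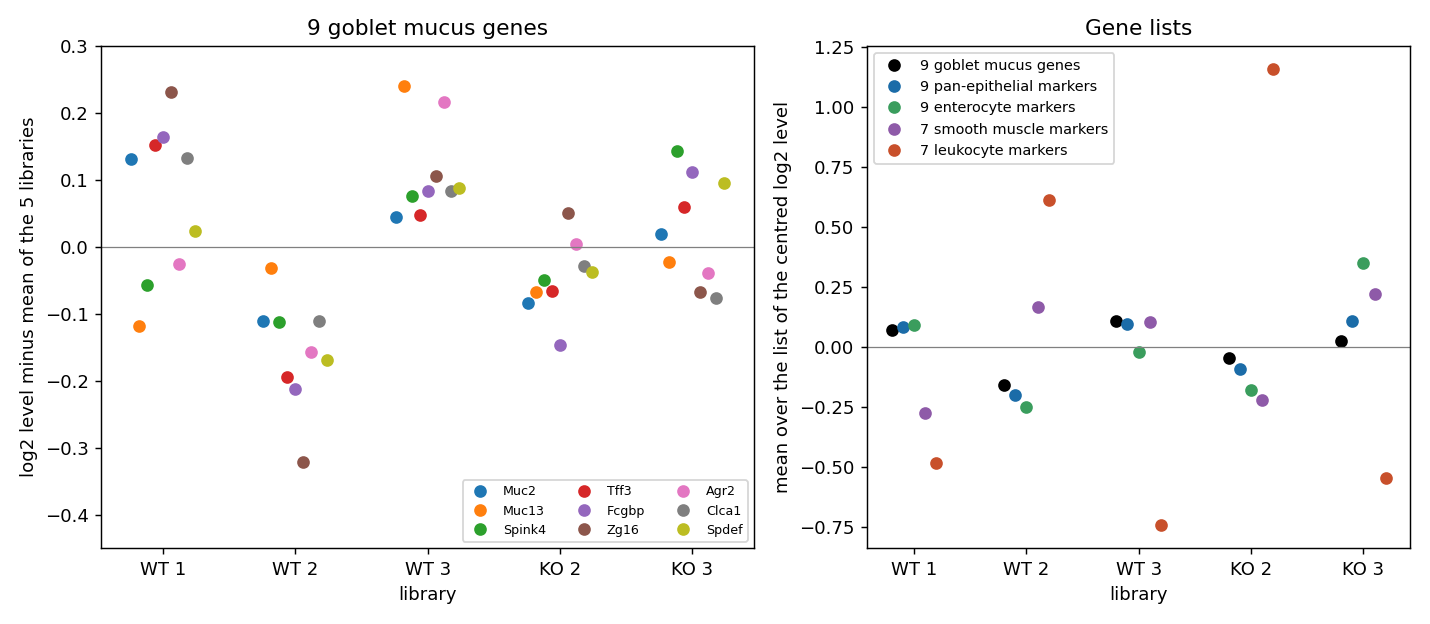
Left, log2 level of each of the 9 genes minus its mean over the 5 libraries (vertical axis) by library (horizontal axis). Right, the average of the same quantity over gene lists, on its own scale. The mucus genes average -0.16 in WT 2, where pan-epithelial markers average -0.20 and leukocyte markers 0.61.

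As a description of levels relative to the epithelium, the mean of the 9 pan-epithelial markers was subtracted in each library, a choice made after the values were seen. The range over the 5 libraries then went from 0.35 to 0.12 log2 units for Tff3, from 0.38 to 0.14 for Fcgbp, from 0.26 to 0.11 for Spdef and from 0.55 to 0.32 for Zg16. It was smaller for Muc2 (0.24 to 0.18), Agr2 (0.37 to 0.27) and Spink4 (0.26 to 0.23) as well. It did not narrow for Muc13 (0.36 to 0.37) or Clca1 (0.24 to 0.27). On this scale KO minus WT ran from -0.10 ± 0.18 (SE) for Clca1 to 0.06 ± 0.19 for Spink4, and 0 of 9 passed by limma.

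**Figure D4:**
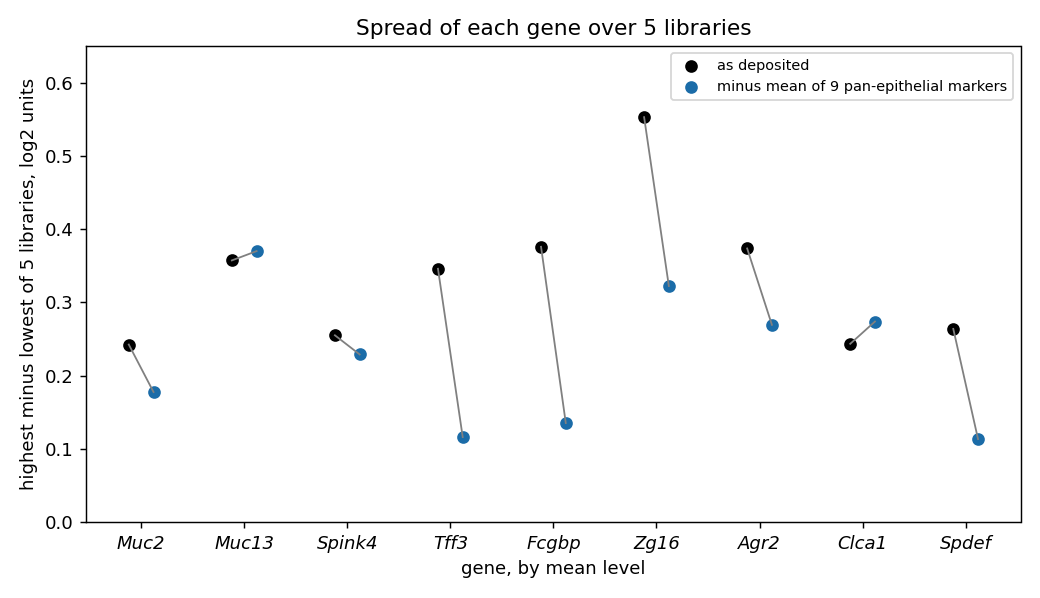
Highest minus lowest of the 5 libraries for each gene (vertical axis, log2 units), as deposited (black) and after subtracting the mean of 9 pan-epithelial markers in each library (blue). The range of Tff3 falls from 0.35 to 0.12 and that of Fcgbp from 0.38 to 0.14, while Muc13 goes from 0.36 to 0.37.

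Genes whose pattern over the 5 libraries came closest to the average of the 9 members were sought among 10564 genes at or above the median level, leaving out predicted genes and antigen receptor segments. The closest were Cmtm6, Dnpep, Ckmt1, Krt8 and Mep1b, with a root mean square difference of 0.014 to 0.021 log2 units. With 5 libraries and this many genes, such closeness is a description only. Krt8 is a keratin of simple epithelia and was itself among the pan-epithelial markers.

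KO 1 covers 4 members, and Muc2, Fcgbp, Zg16, Clca1 and Spink4 lie on chromosomes it lacks. Tff3 was at 8.74 rescaled (9.82 as deposited), inside the range of the other libraries, and so was Spdef at 3.82 (4.85). Agr2 was at 7.75 (8.84), below their lowest value of 7.82. Muc13 was at 10.18 (11.26), above their highest value of 9.66. Of all covered genes at or above the median level, 23.4% lay above and 39.8% below the other 5 libraries in KO 1, so 1 of 4 above and 1 of 4 below is not particular to these genes. Differences within a library do not depend on the rescaling beyond the added constant. As deposited, Muc13 exceeded Tff3 by 1.44 in KO 1 and by 0.29 to 0.75 elsewhere, whereas Agr2 minus Tff3 was -0.98 in KO 1 and -1.07 to -0.72 elsewhere. With KO 1 included, rescaled, the limma difference of Muc13 turned from -0.08 to 0.19 and that of Spdef from 0.05 to -0.01, and neither passed.

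Some genes around the mucus pathway also lay outside the range of the other libraries in KO 1, in both directions. This is not particular to them, since 23.4% of covered genes at or above the median level lay above and 39.8% below. Retnlb, a goblet product with antibacterial action, was at 3.04 rescaled against 3.85 to 5.12. The secreted defence genes Ang4 (4.70 against 5.21 to 5.84) and Itln1 (7.03 against 7.68 to 8.19) were also lower. Mep1b, whose product meprin beta cleaves Muc2, was at 8.18 against 7.37 to 7.59, and P4hb, a protein disulfide isomerase, at 8.17 against 7.36 to 7.65. The smooth muscle gene Myh11 was at 3.80 against 7.34 to 7.82 in the same library. Gut segment and tissue composition cannot be told apart from genotype in this 1 library.

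**Figure D5:**
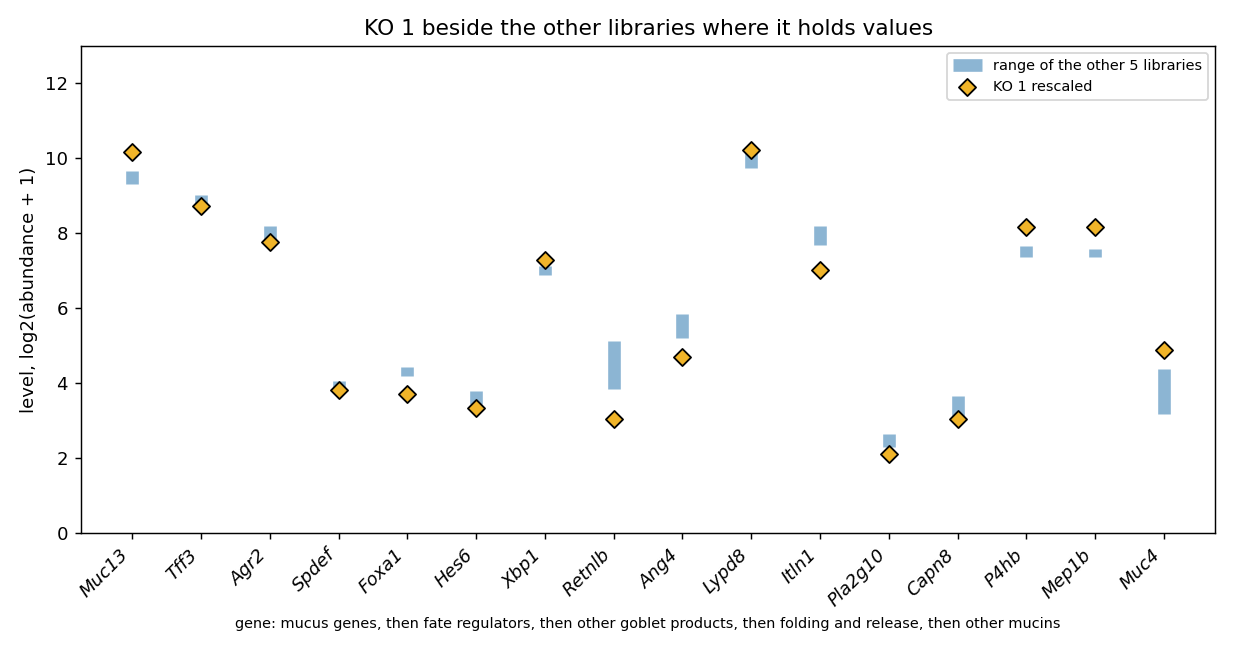
Level (vertical axis, log2(abundance + 1)) of the covered goblet-related genes with a mean of at least 1 (horizontal axis). Yellow diamonds are KO 1 rescaled and blue bars the range of the other 5 libraries. Muc13 lies above its bar at 10.18, Retnlb below its bar at 3.04, and Tff3 and Spdef within theirs.

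In the 6 related lists, 0 of 66 genes tested passed by limma. The KO mean was higher in 39 and lower in 27, with a median difference of 0.01, beside 0.03 over all genes. Groups did not overlap in 6 that were higher in KO and 2 that were lower, beside 9.83% and 3.75% of all genes.

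Of the 10 transcription factors of secretory and goblet fate, 5 were higher, 5 lower and 0 passed. Atoh1, which commits cells to the secretory lineage, was at 4.06, 4.03 and 3.73 in WT 1 to WT 3, against 3.95 in KO 2 and 3.85 in KO 3. Klf4, a factor of goblet cell differentiation, was at 5.88, 5.40 and 5.86 in WT 1 to WT 3, against 5.70 in KO 2 and 6.13 in KO 3. Xbp1, the effector of the unfolded protein response, was at 6.93, 6.89 and 7.12 in WT 1 to WT 3, against 6.92 in KO 2 and 7.01 in KO 3. These groups overlapped.

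The smallest p of that list belonged to Hes6, an inhibitor of Hes1, at 3.43, 3.49 and 3.57 in WT 1 to WT 3, against 3.69 in KO 2 and 3.80 in KO 3 (difference 0.25 ± 0.10, unadjusted p = 0.0471 and adjusted p = 0.99998 by limma). Creb3l1, a membrane-bound factor of secretory capacity, was at 4.89, 4.91 and 5.0 in WT 1 to WT 3, against 5.03 in KO 2 and 5.21 in KO 3 (adjusted p = 0.99998 by limma). Both groups were apart in these genes without passing, and KO 1 rescaled was at 3.33 for Hes6, below every other library.

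Of 16 genes of mucin folding, packing and release, 11 were higher, 5 lower and 0 passed. Ern2, the epithelial stress sensor IRE1 beta, was at 3.99, 3.94 and 3.84 in WT 1 to WT 3, against 4.01 in KO 2 and 4.04 in KO 3. Stxbp2, a regulator of granule fusion, had a difference of 0.24 ± 0.13 (SE), and Rep15, a Rab15 effector, one of -0.21 ± 0.19. Of 11 enzymes of mucin O-glycans, 6 were higher and 5 lower, with Gcnt1, which makes branched glycans, at 0.26 ± 0.22 and the sialic acid transporter gene Slc35a1 at -0.07 ± 0.11. None of these 5 passed.

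Of 10 other mucin genes tested, 5 were higher and 5 lower, and 0 passed. Muc3, a transmembrane mucin, was the most abundant of them, at 9.04, 8.61 and 9.03 in WT 1 to WT 3, against 8.77 in KO 2 and 8.87 in KO 3, and again lowest in WT 2. Muc1 was at 0.60, 0.59 and 0.63 in WT 1 to WT 3, against 0.77 in KO 2 and 0.69 in KO 3, and Muc20 differed by -0.06 ± 0.07 (SE). Muc5ac, the gel mucin of the stomach surface, was at most 0.03. Of 7 other trefoil and CLCA genes tested, 7 were higher, beside 61.0% of all genes, and 0 passed. The signs of Clca3a2 and Tff2 turned in some alternative runs, and other genes of the list were not steady either. Clca4a and Clca4b in KO 2, at 5.57 and 7.76, lay below their WT means of 6.06 and 7.98. Clca2 in KO 3, at 0.261, lay below its WT mean of 0.268. Only Clca3a1 and Clca3b were above the WT mean in KO 2 and KO 3 alike. Clca3b was at 7.04, 7.24 and 7.28 in WT 1 to WT 3, against 7.36 in KO 2 and 7.32 in KO 3, and Clca3a2 differed by 0.15 ± 0.13. Tff2 was near 0 throughout, at most 1.01, and Tff1, the gastric trefoil gene, was listed at 0 in every library, as was Best2, a channel gene of colonic goblet cells, which KO 1 does not cover.

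Of 12 other goblet products, 5 were higher, 7 lower and 0 passed. Sval1, a secreted protein gene, was at 3.01, 2.60 and 3.11 in WT 1 to WT 3, against 2.33 in KO 2 and 2.13 in KO 3, so that both KO libraries lay below WT. Its difference was -0.68 ± 0.19 (SE, unadjusted p = 0.0122 and adjusted p = 0.99998 by limma). Retnlb was at 4.12, 3.85 and 5.12 in WT 1 to WT 3, against 4.68 in KO 2 and 4.81 in KO 3, and Capn8, a calpain gene, differed by 0.21 ± 0.15. Both of these overlapped between groups.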

How the data were processed

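Levels of 9 goblet cell genes were compared in mouse intestinal RNA-seq libraries. The authors deposited 1 table of log values, taken here as log2(abundance + 1); the build is mm10, per the submitters' processing notes, and an aligner, counter, strand setting, unit, log base or constant is not given in the sources used here. With base 2, linear sums per library were 277207 to 314569 and, weighted by exon length in kilobases, 1303688 to 1400212; base e gave 2698995 to 3086926 and 8960598 to 11144670. The weighted sums exceed a per-million total with either base, less so with base 2. They rest on the merged exons of each gene, and the gene length behind the unit is not stated. Base 2 and a unit per gene length are thus assumptions that these sums do not settle. Of 32245 rows, 26 with dates or repeated names were left out. GENCODE M21 placed 31398 of 32219 genes. Genes above 0 in at least 3 of 6 libraries (22178) were tested on 5 libraries, KO 1 left out, by the 2-sided moderated test of limma (3.58.1, R 4.3.3) with a trended prior variance and Benjamini-Hochberg adjustment over all of them, and the test was tried on simulated data. KO 1 was rescaled by its median ratio over 2160 genes at 4 or more. Members and lists were chosen with earlier results of these data known. All 9 members were named, with the 2 genes of smallest p from each related list. Atoh1, Klf4, Xbp1, Ern2, Tff1, Tff2 and Retnlb were named whatever their values. Muc3, Muc5ac, Best2, Gm15657, Fut2, Clca2, Clca3a1, Clca4a, Clca4b, Car1, P4hb, Mep1b, Ang4, Itln1 and the marker genes were named after their values were seen. Left-out libraries, scaling, filters, constants, variance model and replicate block were varied. A marker gene of the leukocyte list is not reported here, and the list's values are without it.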

Additional observations from a re-analysis of the deposited data

Results flagged for a closer look

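KO 1 is outside the comparison of the groups. Muc13, Xbp1 and Muc20 were among the genes that stood higher in it, after rescaling, than in every WT library. Muc13 was at 10.177, Xbp1 at 7.283 and Muc20 at 0.480, the last of these near the bottom of the scale. WT reached 9.66 for Muc13, 7.12 for Xbp1 and 0.45 for Muc20. Of covered genes at or above the median level, 23.4% lay above the other 5 libraries in KO 1, as Muc13 and Xbp1 did. Muc20 lies below that level, so this share does not describe it.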

How the results depend on the processing

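Under every alternative run with more than 1 library per group, 0 of 9 mucus genes passed by limma, with adjusted p of 0.718 or more. None of the 66 related genes passed in these runs either. Those with a mean under 1, such as Muc1, Muc20 and Tff2, were not tested in the run with a mean of at least 1. Over all genes, 1 passed in the main test. With the replicate block, no filter, a constant of 0.1 or any 1 WT library left out, 0 passed. All 6 libraries as deposited and a mean of at least 1 also gave 0, but these runs could not test Gm49380, the 1 gene that passed. It averaged 0.024 in WT and 1.80 in KO 2 and KO 3, so that filter removed it, and KO 1 does not cover it. Relative to pan-epithelial markers, an alternative chosen after seeing the data, 50 passed (18 higher, 32 lower, none a mucus gene). The cause was not tested. Centring moved the median of all genes from 0.03 to -0.03.

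Signs of small differences turned. With all 6 libraries as deposited, Muc13 was at 0.55, Tff3 at 0.31, Agr2 at 0.26, Muc20 at 0.11 and Xbp1 at 0.45. KO 1 is scaled up in that run. Its zeros entered there as values, which gave the 5 members it does not cover -3.89 to -2.64. These 5 differences are not read, though the counts and adjusted p given above include that run. With KO 1 rescaled, Muc13 was at 0.19, Spdef at -0.0091, Xbp1 at 0.0899 and Retnlb at -0.19. With centring, Spdef was at -0.0072 and Tff2 at -0.0352; with quantile normalization, Muc2 at 0.0639 and Tff2 at -0.0196; with a constant of 5, Tff2 at -0.0063. With the replicate block, Muc2 was at 0.0013, Tff3 at 0.0699, Fcgbp at 0.0476, Zg16 at 0.10 and Atoh1 at 0.0208.

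Over left-out libraries the differences ran from -0.12 to 0.001 for Muc2, -0.15 to 0.0293 for Muc13, -0.10 to 0.0699 for Tff3, -0.16 to 0.10 for Fcgbp, -0.18 to 0.10 for Zg16, -0.11 to 0.0743 for Agr2, -0.0268 to 0.11 for Spdef and -0.0187 to 0.17 for Spink4. They ran from -0.14 to 0.0208 for Atoh1, -0.009 to 0.30 for Clca3a2, -0.0159 to 0.42 for Klf4, -0.14 to 0.0133 for Muc20, -0.21 to 0.30 for Tff2 and -0.0598 to 0.0545 for Xbp1. A lone KO library was assumed to vary like the others. Correlations between same-numbered libraries, as deviations from group means, were 0.26, 0.53 and 0.06 over 6516 covered genes. WT 1 and WT 2 went best with the KO library of their number, and WT 3 went best with KO 1 (0.21). These values rest partly on KO 1 and do not settle whether the numbers are pairs. The main test used no pairs, and the replicate block was run as an alternative. The depth of the libraries is unknown, and differences inside the intervals given could not be detected.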

Other observations

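The average of enzymes of mucin O-glycans, relative to the 5-library mean, was lowest in WT 2 (-0.16) and highest in WT 3 (0.25). The average of the mucus genes was lowest and highest in the same libraries, but the medians differed. By median the enzymes were lowest in WT 1 (-0.13, against -0.10 in WT 2). The mucus genes had their highest median in WT 1 (0.13, against 0.08 in WT 3), and 5 of 9 were highest there. Of the 11 enzymes tested, 5 were lowest in WT 2 and 8 were highest in WT 3. In WT 3, 19.8% of genes at or above the median level had their highest value. Fut2, which adds terminal fucose, was at 6.46 in WT 3 and at 4.61 to 5.31 in the other 4 libraries. Car1, a carbonic anhydrase gene high in the colon, was at 6.07 in WT 3 and 3.37 to 4.11 elsewhere. Clca4a, an enterocyte relative of Clca1, was at 7.21 in WT 3 and 7.54 in KO 3, and at 5.04 to 5.93 in WT 1, WT 2 and KO 2. These genes were chosen after their values were seen.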
